A study of Homo sapiens with 20 samples.

Results

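The S100 genes of chromosome 1q21 examined here are S100A8, S100A9 and S100A12, which encode the calgranulins, and S100A4, S100A6, S100A10 and S100A11, which lie in the same chromosomal region. Every peak of the RUNX1 binding table within 50 kb of the RefSeq span of one of these 7 genes was taken, which gave 18 of 26642 peaks. The peaks fell into 3 groups along the chromosome: 9 around S100A10 and S100A11, 3 around S100A9, S100A12 and S100A8, and 6 around S100A6 and S100A4. They are numbered 1 to 18 below in the order of their position. After PU.1 knockdown, 2 of the 18 were called lost, a peak downstream of S100A8 and a peak upstream of S100A10, and none was called gained. These 2 peaks kept 24.4% and 54.6% of the control level. Over all 26642 peaks, 20.7% were called lost and 21.3% gained.

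S100 proteins are small calcium-binding proteins with a pair of EF-hand motifs, and most of them work as dimers. S100A8 and S100A9 form calprotectin, one of the most abundant cytosolic complexes of neutrophils and monocytes, which chelates zinc and manganese and, once released, acts on TLR4 and the receptor RAGE. S100A12 is the other calgranulin of granulocytes and monocytes with related extracellular activity. S100A10 forms a complex with annexin A2, S100A11 binds annexin A1, S100A6 is also known as calcyclin, and S100A4 binds non-muscle myosin and is linked to cell motility and metastasis. RUNX1 is a DNA-binding factor of hematopoiesis, and PU.1, encoded by SPI1, is an ETS-family factor. The study's introduction states that mice without PU.1 form no monocytes, macrophages or B cells but still form neutrophils.

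RUNX1 was mapped by chromatin immunoprecipitation with sequencing (ChIP-seq) in THP-1 cells, an established line from a human acute monocytic leukemia. The control group carried an inducible scramble shRNA and the knockdown group an inducible shRNA against PU.1, and doxycycline was added to both, so that all libraries came from cells with an induced shRNA cassette. The labels give 6 control and 6 knockdown libraries in 2 experimental rounds (batches), with control replicates 1 to 3 and knockdown replicates 1 and 2 in batch 1, and control replicates 4 to 6 and knockdown replicates 3 to 6 in batch 2. A figure legend of the study describes cell line replicates with separate immunoprecipitations and library preparations, so the p-values measure the spread between those. Whether the cells of a group were 1 clone is not given in the sources used here. The assay does not measure the PU.1 level, and these values therefore hold no check of the knockdown. The 8 IgG libraries were not analysed here. The libraries held 630247 to 1199004 reads in peaks in the control group and 938745 to 1719840 in the knockdown group. A count averages over the cells of a culture, so that fewer bound cells and less binding per cell cannot be told apart.

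The start sites of S100A12, S100A8, S100A11 and S100A4 lay under a peak, whereas those of S100A9, S100A6 and S100A10 did not. The promoter windows below run from 250 bases before to 50 bases after a start site and were taken from RefSeq for GRCh38.p14, in which all 7 genes were found. They show the 3 calgranulin genes, between which the lost peak lies, and S100A11, whose start carries the strongest of the 18 peaks. Each is printed 5′ to 3′ on the strand of its gene, with capitals for matches to 3 motifs searched on both strands: a RUNX motif (TGTGGT or TGCGGT), a PU.1-type ETS motif (GAGGAAG or GAGGAAC) and a C/EBP motif (TTGCNNAA).
S100A9 promoter, chr1:153357604-153357903, plus strand, no peak: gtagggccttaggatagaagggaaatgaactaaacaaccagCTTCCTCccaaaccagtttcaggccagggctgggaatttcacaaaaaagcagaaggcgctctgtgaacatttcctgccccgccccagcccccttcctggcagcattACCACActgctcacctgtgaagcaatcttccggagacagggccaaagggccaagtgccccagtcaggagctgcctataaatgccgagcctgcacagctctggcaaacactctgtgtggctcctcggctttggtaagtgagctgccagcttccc
S100A12 promoter, chr1:153375572-153375871, minus strand, under peak 10: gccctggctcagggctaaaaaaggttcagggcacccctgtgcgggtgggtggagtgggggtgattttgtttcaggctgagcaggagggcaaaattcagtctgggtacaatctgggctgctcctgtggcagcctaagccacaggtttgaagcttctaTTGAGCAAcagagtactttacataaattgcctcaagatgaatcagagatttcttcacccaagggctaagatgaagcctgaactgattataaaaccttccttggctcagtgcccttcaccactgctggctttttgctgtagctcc
S100A8 promoter, chr1:153391024-153391323, minus strand, under peak 12: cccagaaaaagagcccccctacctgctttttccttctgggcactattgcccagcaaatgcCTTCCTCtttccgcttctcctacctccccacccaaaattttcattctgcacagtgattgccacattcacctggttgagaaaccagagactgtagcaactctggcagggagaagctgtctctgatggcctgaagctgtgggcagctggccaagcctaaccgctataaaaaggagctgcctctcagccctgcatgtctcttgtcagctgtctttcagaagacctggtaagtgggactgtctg
S100A11 promoter, chr1:152036955-152037254, minus strand, under peak 8: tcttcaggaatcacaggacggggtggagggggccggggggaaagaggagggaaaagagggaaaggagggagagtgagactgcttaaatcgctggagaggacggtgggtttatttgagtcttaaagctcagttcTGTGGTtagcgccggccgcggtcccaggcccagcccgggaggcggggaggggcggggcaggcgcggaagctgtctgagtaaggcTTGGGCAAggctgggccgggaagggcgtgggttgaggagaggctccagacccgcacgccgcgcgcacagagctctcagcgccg

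The S100A11 window held 1 RUNX match, TGTGGT at -117 from the start, and 1 C/EBP match, TTGGGCAA at -33. The S100A9 window held the RUNX letters read on the other strand, ACCACA at -103, and a PU.1-type match, CTTCCTC at -209, although no peak covered it. The S100A12 window held only a C/EBP match, TTGAGCAA at -94, and the printed S100A8 window only a PU.1-type match, CTTCCTC at -190. S100A8 has 3 start sites with a promoter window, and the window of the middle one is printed. The same match stood at -75 in the window of another start, and the window of the remaining start held none of the 3 motifs. S100A4, which is not printed, held the RUNX letters ACCGCA at -105, and the windows of S100A6 and S100A10 held none of the 3 motifs. No match overlapped another. Such letters were common: of 35116 promoter windows, 19.6% held the RUNX motif, 17.6% the PU.1-type motif and 10.5% the C/EBP motif. The RUNX motif stood in 25% of the windows that a RUNX1 peak covered and in 17.9% of those without a peak. No sequence is shown for the lost peaks, which lie outside the promoter windows.

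Across the table, 42% of the 26642 peaks were called changed at an adjusted p (DESeq2) under 0.05 and a fold change over 1.1, 21.3% as gained and 20.7% as lost. Of the 18 S100 peaks, 2 were called (11.1%), both as lost. The other 16 had log2 fold changes (knockdown over control) between -0.41 and 0.46. For 10 of the 18 the change was smaller than its standard error, which held for 7538 of all 26642 peaks. The median over the 18 was -0.08 against -0.02 over all peaks. The S100 peaks had a median mean count of 45.2 against 31.2 over all peaks and a median standard error of 0.17 against 0.21. Their mean counts ran from 16.6 to 160.0, so some were weaker than the median of all peaks. Whether count strength bears on the share called was not tested. Among the 289 other peaks of chromosome 1 within 5 Mb of the S100 genes, 39.4% were called, 13.8% as gained and 25.6% as lost, with a median of -0.14.

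A promoter window of some gene lay under 7 of the 18 peaks (5430 of all 26642, or 20.4%). None of these 7 was called, where the share over the table was 22.1% for peaks over a promoter window. Of the other 11, 2 were lost, against 47.1% called and 21.4% called lost among all peaks over no promoter window. At a fold change over 2, which 17.1% of all peaks passed and 8.2% as lost, peak 11 was the only S100 peak called. These counts are descriptions of 18 peaks that share 3 stretches of chromosome, with no test of the difference in share.

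**Figure D1:**
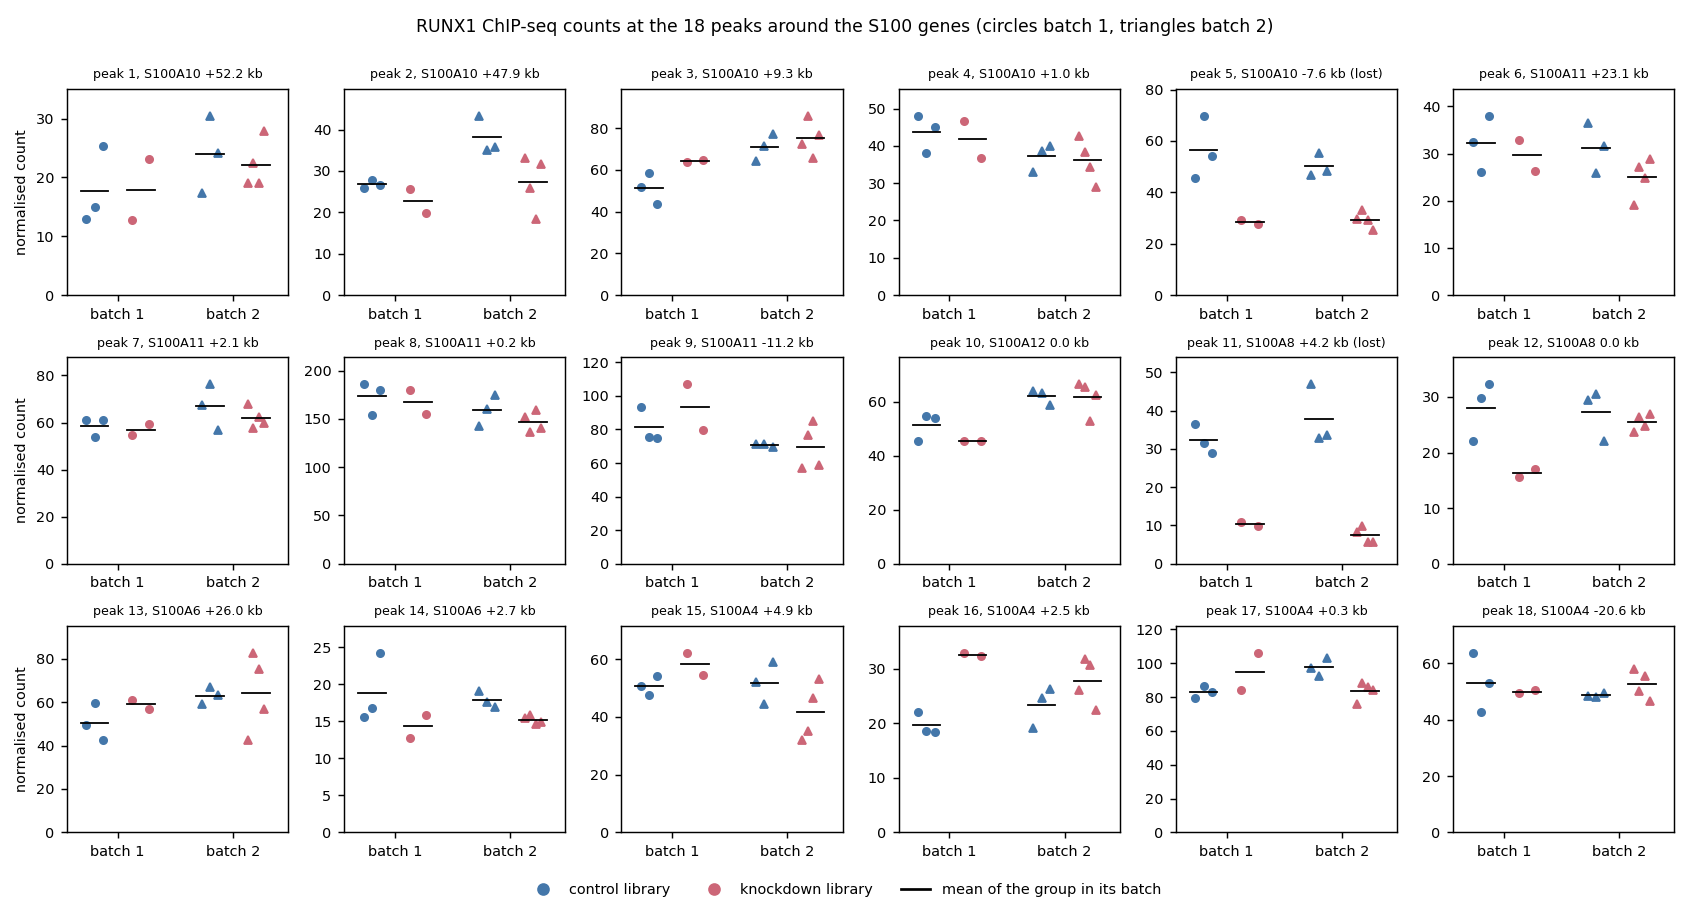
Normalised RUNX1 counts (y axes, from 0) in each library at the 18 peaks around the S100 genes, with control in blue, knockdown in red, batch 1 as circles, batch 2 as triangles and the mean of each group in its batch as a line; panel titles give the nearest gene and the distance of the peak centre from its start (positive downstream). At peak 11 the knockdown libraries sit between 5.59 and 10.96 and the control libraries between 28.8 and 46.8, and at peak 5 the groups are likewise apart in both batches.

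The calgranulin stretch carried 3 peaks within 16.2 kb: peak 10 over the start of S100A12, peak 11 between S100A12 and S100A8, and peak 12 over the start of S100A8. Peak 11, at chr1:153386266-153387230, overlapped no annotated gene and began 2802 bp beyond the 3′ end of S100A8, with its centre 4228 bp downstream of an S100A8 start. In batch 1 its normalised counts were 36.4, 31.6 and 28.8 in the control libraries and 10.96 and 9.88 in the knockdown libraries. In batch 2 they were 46.8, 32.8 and 33.7 in the control libraries and 8.31, 9.91, 5.74 and 5.59 in the knockdown libraries. Every knockdown library was thus below every control library, in either batch.

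The mean at peak 11 was 35.0 ± 6.29 (SD, n = 6) in control and 8.40 ± 2.28 (SD, n = 6) in knockdown cells. The log2 fold change was -2.04 ± 0.27 (SE), a fitted 4.10-fold loss that kept 24.4% of the control level, with a DESeq2 adjusted p of 1.12e-12, and its 95% interval ran from -2.56 to -1.51. Within batch 1 the log2 fold change was -1.62 ± 0.48 (DESeq2 adjusted p = 0.0119) and within batch 2 it was -2.34 ± 0.38 (DESeq2 adjusted p = 8.25e-08). The raw counts behind these values were small, 25 to 34 reads per control library and 6 to 15 per knockdown library. Among the 5519 lost peaks of the table this one ranked 324th by size of change, with 5.85% of them losing more.

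The start sites on both sides of peak 11 carried peaks that were not called. At peak 10, over the S100A12 start (chr1:153375160-153376098), control libraries ranged from 45.5 to 64.2 with a median of 56.9, and knockdown libraries from 45.4 to 66.5 with a median of 57.7. The groups overlapped over nearly their whole range, and the log2 fold change was -0.08 ± 0.15 (DESeq2 adjusted p = 0.692), with an interval of -0.37 to 0.21. At peak 12, over the S100A8 start (chr1:153390538-153391390), control libraries ranged from 22.1 to 32.3 with a median of 29.6, and knockdown libraries from 15.5 to 27.0 with a median of 24.3.

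For the S100A8 start peak the log2 fold change was -0.36 ± 0.22 (DESeq2 adjusted p = 0.183), which did not pass, with an interval of -0.80 to 0.07. In batch 1 the knockdown values of 15.5 and 17.1 lay below all control values (22.1 to 32.3), whereas in batch 2 the knockdown values of 23.8 to 27.0 lay within the control range of 22.1 to 30.5. The change was -0.77 ± 0.46 in batch 1 and -0.09 ± 0.31 in batch 2, and the difference between the batches did not pass (interaction, DESeq2 unadjusted p = 0.142).

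Because counts at neighbouring peaks of 1 library share its depth, their ratio does not depend on the scaling between libraries. The raw count at peak 11 was 0.52 to 0.80 of that at the S100A12 start in the control libraries (median 0.57). In the knockdown libraries it was 0.09 to 0.24 (median 0.14), so the ratios of the groups did not overlap. The summed normalised count of the 3 calgranulin peaks was 119.6 ± 12.5 (SD, n = 6) in control and 87.2 ± 13.1 in knockdown cells. Control sums ran from 104.0 to 140.5 and knockdown sums from 72.1 to 101.7, again without overlap, and most of that difference came from peak 11.

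**Figure D2:**
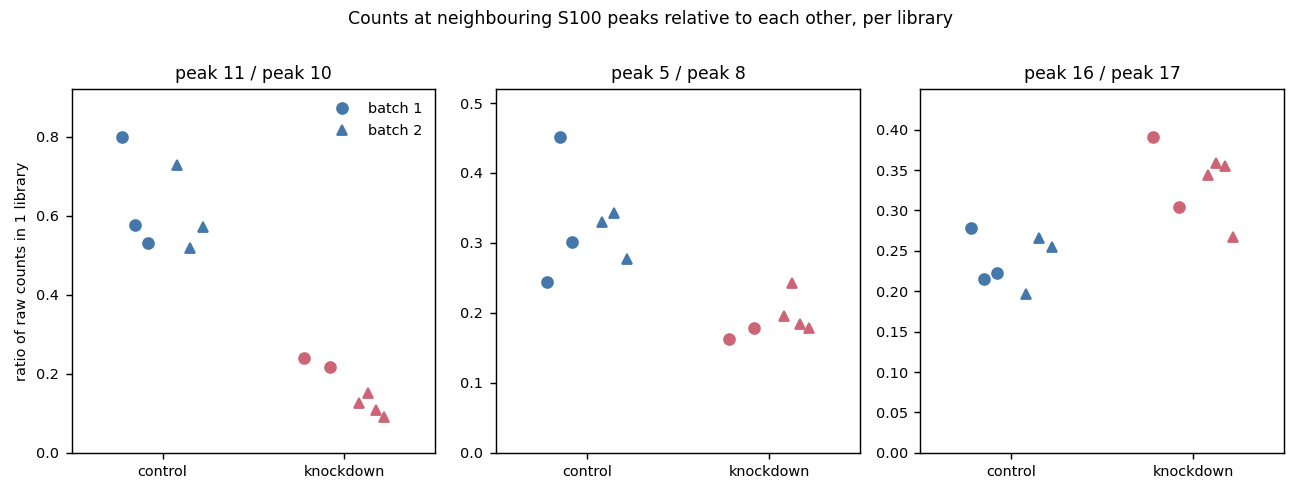
Ratio of raw counts at 2 neighbouring peaks within each library (y axes, from 0) for control (blue) and knockdown (red), with batch 1 as circles and batch 2 as triangles. The ratio of the lost peak 11 to the S100A12 start peak lay between 0.52 and 0.80 in control and between 0.09 and 0.24 in knockdown libraries, peak 5 over peak 8 was likewise lower in knockdown, and peak 16 over peak 17 was higher with a slight overlap.

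S100A9, whose product pairs with S100A8, had no peak over its span or its start. The nearest was peak 10 at the S100A12 start, 14137 bp away. The same 3 peaks therefore stand within 50 kb of S100A8, S100A9 and S100A12 alike, and none of them can be assigned to 1 of the 3 genes by distance alone. RefSeq gives S100A8 a span from 153390032 to 153422583, much longer than that of its neighbours. The 3 of its start sites that have a promoter window all lie at the lower end, under peak 12. The gene is on the minus strand, and no start at the upper end of its span was among the windows.

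The annexin-binding pair S100A10 and S100A11 carried 9 peaks over 107.8 kb. Peak 5, at chr1:152000872-152002061, lay in the interval between the genes, overlapped no annotated gene and began 7013 bp upstream of S100A10, with its centre at -7608 bp relative to the S100A10 start. In batch 1 its normalised counts were 45.5, 69.8 and 54.2 in the control libraries and 29.2 and 27.7 in the knockdown libraries. In batch 2 they were 46.8, 55.1 and 48.5 in the control libraries and 29.7, 33.0, 29.3 and 25.2 in the knockdown libraries. The lowest control value exceeded the highest knockdown value in each batch.

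The mean at peak 5 was 53.3 ± 8.97 (SD, n = 6) in control and 29.0 ± 2.59 (SD, n = 6) in knockdown cells. The log2 fold change was -0.87 ± 0.18 (DESeq2 adjusted p = 7.65e-06), a fitted 1.83-fold loss that kept 54.6% of the control level. It was -0.99 ± 0.35 in batch 1 (DESeq2 adjusted p = 0.042) and -0.77 ± 0.26 in batch 2 (DESeq2 adjusted p = 0.0134). Its rank of 2642 among 5519 lost peaks placed it near the middle of the losses by size.

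Peaks 3 and 4 lay within S100A10. At peak 4 (chr1:151992284-151993484), centred 975 bp downstream of the S100A10 start, control libraries ranged from 33.0 to 48.1 with a median of 39.4 and knockdown libraries from 28.9 to 46.6 with a median of 37.6. Peak 3, further into the gene (chr1:151984012-151985016), ranged from 43.8 to 76.9 with a median of 61.4 in control and from 63.9 to 85.9 with a median of 69.0 in knockdown libraries. The groups overlapped at both peaks. The log2 fold changes were -0.07 ± 0.18 and 0.17 ± 0.14, with DESeq2 adjusted p-values of 0.791 and 0.35. Relative to peak 4, the raw count at the lost upstream peak was 0.95 to 1.83 in the control group and 0.63 to 0.87 in the knockdown group.

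The strongest of the 18 peaks was peak 8 over the S100A11 start (chr1:152035847-152037660), whose mean count exceeded that of 98.8% of all peaks. Control libraries ranged from 142.2 to 185.8 with a median of 167.7, and knockdown libraries from 136.1 to 179.9 with a median of 153.4. The groups overlapped widely, and the log2 fold change was -0.09 ± 0.10 (DESeq2 adjusted p = 0.466). The 95% interval of -0.29 to 0.10 was the narrowest of the 18. Relative to this peak, the raw count at peak 5 was 0.25 to 0.45 in control and 0.16 to 0.24 in knockdown libraries. In control cells peak 8 held 91.7 normalised counts per kb, against 44.8 per kb for peak 5, 60.5 per kb for the S100A12 start, 36.3 per kb for peak 11, 34.8 per kb for the S100A4 start and 32.5 per kb for the S100A8 start.

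**Figure D3:**
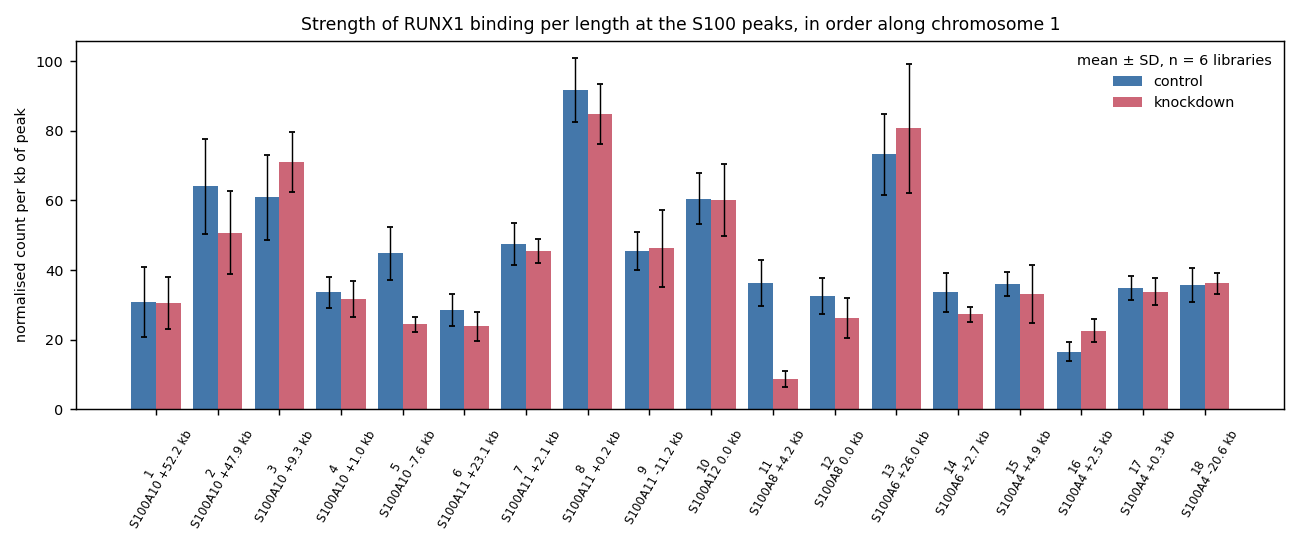
Mean normalised RUNX1 count per kb of peak (y axis, from 0) for control (blue) and knockdown (red) at the 18 peaks in order of position, with SD over 6 libraries as error bars. Peak 8 at the S100A11 start is the highest at 91.7 per kb in control, and peak 11 downstream of S100A8 drops from 36.3 to 8.70 per kb.

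Of the remaining peaks around S100A10 and S100A11, peak 2 came nearest to the threshold. It lies at chr1:151945662-151946168, 36747 bp from S100A10 and within the uncharacterized gene LOC124904421. Its control values were 26.0 to 27.9 in batch 1 and 35.2 to 43.4 in batch 2, and its knockdown values 19.8 to 25.6 in batch 1 and 18.5 to 33.3 in batch 2. Knockdown was below control within each batch without overlap, which held for 28.3% of all peaks in 1 direction or the other, 14.4% above and 13.9% below, and for 3 of the 18 S100 peaks, all below. The log2 fold change of -0.41 ± 0.21 did not pass (DESeq2 adjusted p = 0.107). Peaks 1, 6, 7 and 9 had log2 fold changes between -0.22 and 0.09, and none passed.

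S100A4, the myosin-binding member, and S100A6 carried 6 peaks over 57.5 kb, and none was called by DESeq2. At peak 17 over the S100A4 start (chr1:153544228-153546818), control libraries ranged from 79.3 to 103.2 with a median of 89.6 and knockdown libraries from 76.0 to 106.0 with a median of 85.0. The groups overlapped and the log2 fold change was -0.04 ± 0.13 (DESeq2 adjusted p = 0.848), with an interval of -0.28 to 0.21. The 2 batches leaned in opposite directions there, 0.22 ± 0.25 in batch 1 and -0.22 ± 0.17 in batch 2. Their difference did not pass (interaction, DESeq2 unadjusted p = 0.106).

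Peak 16, over the 3′ end of S100A4 and over S100A5 (chr1:153542661-153543957), had the highest log2 fold change of the 18. Control libraries ranged from 18.4 to 26.3 with a median of 20.6 and knockdown libraries from 22.4 to 32.9 with a median of 31.2. The groups were apart in batch 1 (18.4 to 22.1 against 32.3 and 32.9) and overlapped in batch 2 (19.1 to 26.3 against 22.4 to 31.7). The log2 fold change was 0.46 ± 0.22, with a DESeq2 adjusted p of 0.087 that missed the threshold. edgeR's quasi-likelihood test called it gained (adjusted p = 0.0402), and edgeR called 47.1% of all peaks, 24.1% as gained. Relative to the S100A4 start, its raw count was 0.20 to 0.28 in control and 0.27 to 0.39 in knockdown libraries, which overlapped slightly.

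S100A6, or calcyclin, had no peak over its span. Its nearest, peak 14, lay 1014 bp beyond its 3′ end over the start of the uncharacterized gene LOC124904423 (chr1:153533040-153533585), and had the lowest mean normalised count of the 18 (16.6). Control libraries ranged from 15.6 to 24.2 with a median of 17.2 and knockdown libraries from 12.8 to 15.9 with a median of 15.2. The knockdown values lay at or below the lower end of the control range, and the log2 fold change of -0.29 ± 0.26 did not pass (DESeq2 adjusted p = 0.393). Peaks 13, 15 and 18, of which 15 and 18 lay over promoter windows of S100A5 and S100A2, had log2 fold changes between -0.08 and 0.12.

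**Figure D4:**
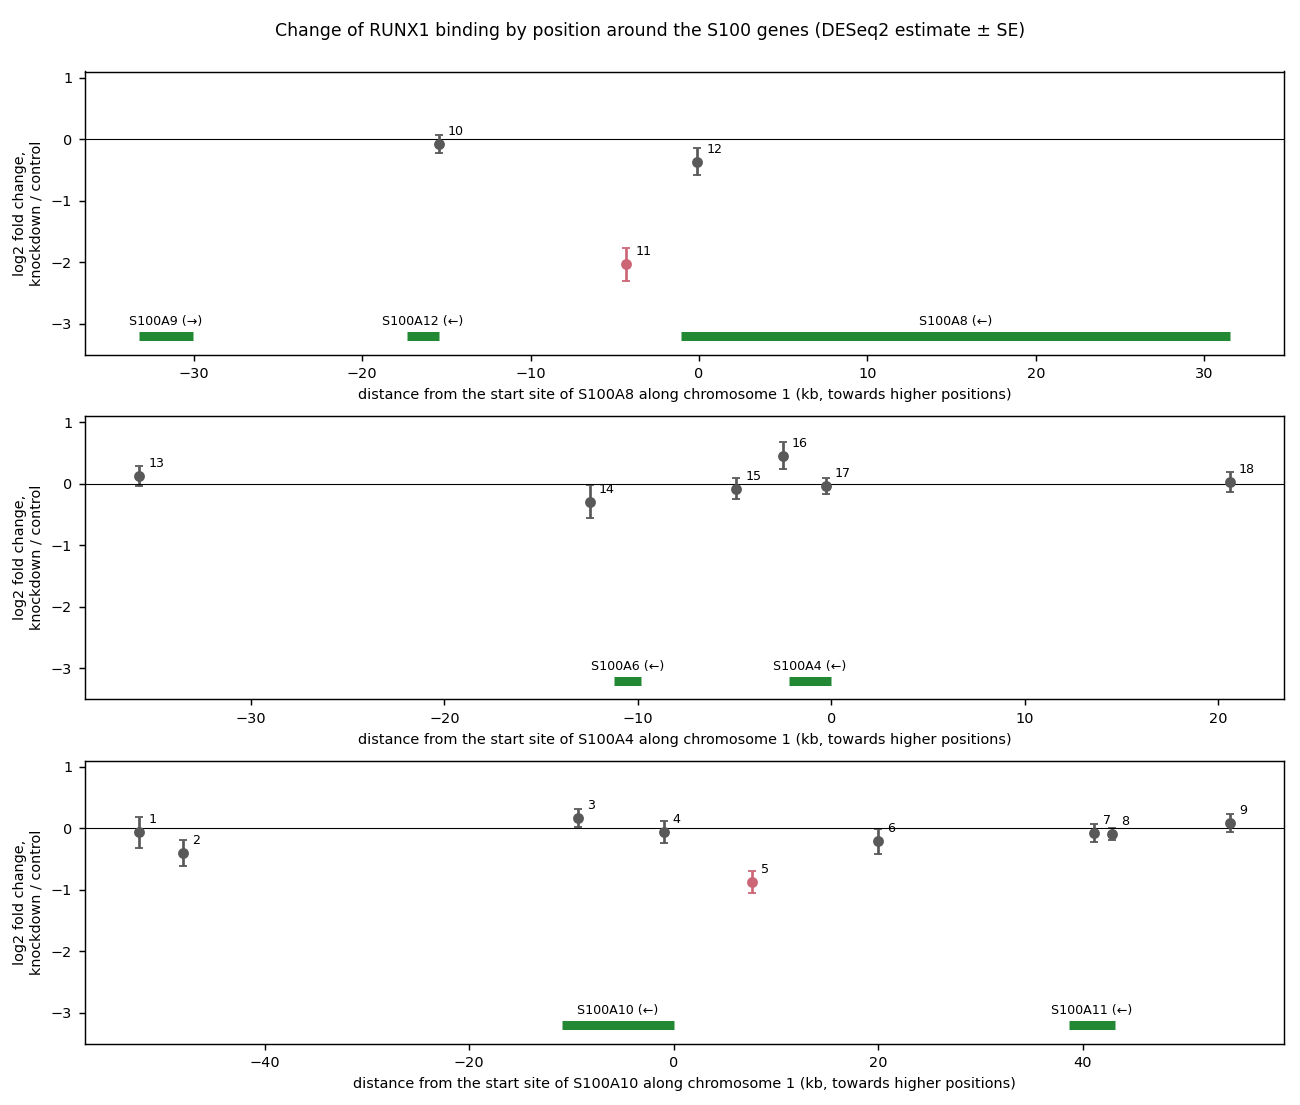
Log2 fold change of RUNX1 binding (y axis, knockdown over control, ± SE) against the distance of the peak centre from the start of S100A8, S100A4 or S100A10 (x axes, kb); green bars are gene spans, arrows give the strand, and lost peaks are red. Peaks 11 (-2.04) and 5 (-0.87) stand below their neighbours, while the peaks over the starts of S100A12, S100A8, S100A4 and S100A11 lie between -0.36 and -0.04.

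Both losses were seen in each batch taken alone, where 12% of all peaks were called in batch 1 (6.61% as lost) and 25.8% in batch 2 (13.1% as lost). The 2 called S100 peaks were peaks 5 and 11 each time. Of the 18 peaks, 13 had the same sign of change in both batches. No peak of the table passed a test of the batch difference at an adjusted p under 0.05 (DESeq2 interaction), and at an unadjusted p under 0.05 it was 669 peaks (2.51%) and none of the 18 S100 peaks. The calls within a batch rested on few libraries. Leaving out any 1 of the 5 libraries of batch 1 ended the call of peak 11 there, with log2 fold changes from -1.69 to -1.53 and DESeq2 adjusted p-values from 0.0641 to 0.344. Peak 5 stayed called in batch 1 only without control replicate 1. In batch 2 peak 11 stayed called without any 1 of the 7 libraries, and peak 5 lost its call without control replicate 5, control replicate 6 or knockdown replicate 6 (highest adjusted p = 0.11, DESeq2). Where leaving out a knockdown library left 1 in batch 1, it was assumed to vary like the control libraries.

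**Figure D5:**
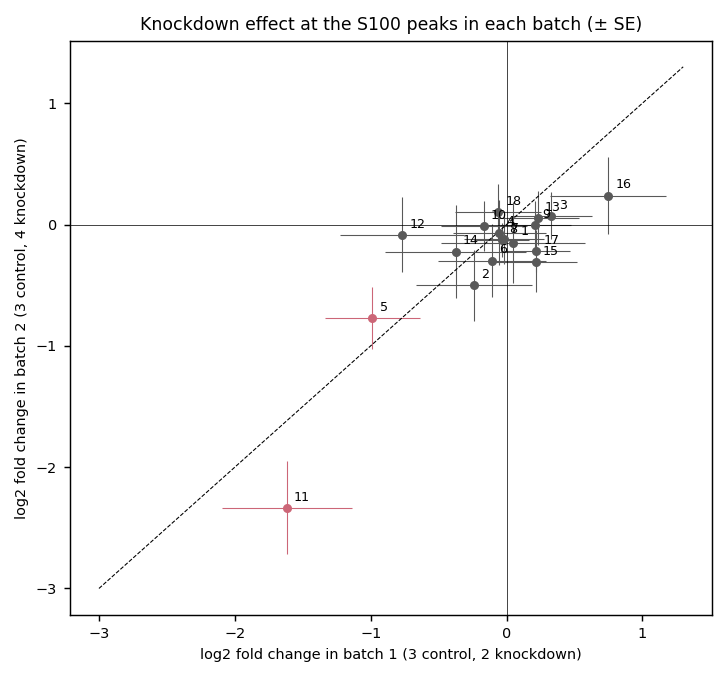
Log2 fold change of each S100 peak in batch 1 (x axis) and batch 2 (y axis), with standard errors as bars and a dashed line where both are equal; lost peaks are red. Peak 11 lies at -1.62 and -2.34 and peak 5 at -0.99 and -0.77, to the lower left of the other 16 peaks.

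The 1326 kb between the S100A11 and S100A12 stretches, with 48 protein-coding genes, held 4 peaks. One of them, within PGLYRP3 (chr1:153306658-153307378), lay 50476 bp from S100A9 and so just outside the 50 kb limit. It had a log2 fold change of -2.58 ± 0.35, from 25.2 ± 7.45 to 4.45 ± 1.84 (SD, n = 6; DESeq2 adjusted p = 1.02e-11). On the other side, a peak 52600 bp from S100A4 near S100A16 (chr1:153598406-153599820) had one of -1.32 ± 0.21, from 47.7 ± 5.56 to 18.4 ± 5.30 (DESeq2 adjusted p = 2.91e-09). The members farthest from a gene, peaks 1 and 2, lay 40963 and 36747 bp away. With a limit of 100 kb, 24 peaks were taken and 6 called, 1 gained and 5 lost. Over all peaks 42% were called, 20.7% as lost, and among the 289 other peaks within 5 Mb 39.4% were called, 25.6% as lost.

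The region as a whole leaned to lower binding. The median log2 fold change of the peaks within 5 Mb on either side was between -0.17 and -0.13 for the 18 peaks. After this median was subtracted, peak 11 stood at -1.89 (DESeq2-based adjusted p = 5.17e-11), peak 5 at -0.74 (adjusted p = 1.85e-04) and peak 16 at 0.63 (adjusted p = 0.0151). Peak 16 thus counted as gained on this scale, on which 10886 of all 26642 peaks were called, 5765 as gained. The summed count of the 6 peaks of S100A4 and S100A6 was 289.2 ± 17.1 in control and 293.2 ± 24.5 in knockdown cells (SD, n = 6), and that of the 9 peaks of S100A10 and S100A11 was 545.1 ± 19.7 and 502.7 ± 25.8. Peaks 4, 8, 10 and 17, which were negative before and not called, stood at 0.06, 0.04, 0.07 and 0.13 on this scale, so their signs are not read as directions.

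The other S100 genes, outside the 18 peaks, had 15 peaks within 50 kb, of which 2 were called gained and 6 lost (53.3%). Of all 26642 peaks, 42% were called, 21.3% as gained and 20.7% as lost, and the difference in share was not tested. S100Z on chromosome 5 had a single peak nearby with a gain of 1.73 ± 0.14 on the log2 scale, from 46.8 ± 9.38 to 151.4 ± 8.87 (SD, n = 6; DESeq2 adjusted p = 1.51e-34). S100B on chromosome 21, a protein best known from glia, had 2 peaks, both lost, the nearer by -1.07 ± 0.16 (DESeq2 adjusted p = 1.14e-09). S100A13 had 7 peaks within 50 kb, 1 gained and 4 lost, the one of the smallest adjusted p by -1.32 ± 0.21 (DESeq2 adjusted p = 2.91e-09). Over its span lay 1 lost peak (-0.54 ± 0.13, DESeq2 adjusted p = 3.33e-04) and the gained one (0.65 ± 0.21, DESeq2 adjusted p = 0.00626). S100P had 5 peaks and none was called.

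The annexins that bind S100 proteins had 19 peaks, 7 gained and 2 lost (47.4%), against 42% of all peaks called, 21.3% as gained and 20.7% as lost. ANXA2, the partner of S100A10, had 2 peaks and no call, its nearest at 0.37 ± 0.19 (DESeq2 adjusted p = 0.1), and ANXA1, the partner of S100A11, had 3 peaks and no call, its nearest at -0.44 ± 0.24 (DESeq2 adjusted p = 0.14). ANXA6 had 4 gained and 2 lost of 10 peaks. MYH9, the heavy chain of non-muscle myosin to which S100A4 binds, gained 5 and lost 1 of 13 peaks, and its clearest gain was 1.22 ± 0.16 on the log2 scale (33.7 ± 8.43 in control, 80.1 ± 6.52 in knockdown, DESeq2 adjusted p = 3.26e-12). The median of all peaks within 5 Mb of it was 0.19.

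Receptors and adaptors through which calprotectin acts, such as TLR4, CD14 and MYD88, had 34 peaks, 5 gained and 7 lost (35.3%). The share over all peaks was 42%, with 21.3% gained and 20.7% lost. CD36, a scavenger receptor, had 2 peaks, 1 gained and 1 lost. Its nearest peak was the lost one, with -1.53 ± 0.19 on the log2 scale (65.2 ± 7.35 in control, 22.8 ± 7.11 in knockdown, DESeq2 adjusted p = 5.42e-14). The nearest peak to MYD88 was lost as well (-1.27 ± 0.25, DESeq2 adjusted p = 5.26e-06), and a peak 27281 bp from TRAF6 was gained (1.40 ± 0.18, DESeq2 adjusted p = 5.53e-13), whereas the peak over TRAF6 itself was not called (-0.26 ± 0.22, DESeq2 adjusted p = 0.352). TLR4 had 1 of 2 peaks lost. The subunits of the phagocyte NADPH oxidase, to which calprotectin delivers arachidonic acid, had 30 peaks, 6 gained and 8 lost (46.7%, against 42% of all peaks).

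Genes for other abundant proteins of neutrophils and monocytes had 30 peaks, 3 gained and 5 lost (26.7%), against 42% of all peaks called, 21.3% as gained and 20.7% as lost. FCN1, which encodes the monocyte lectin ficolin-1, had both of the peaks within 50 kb of it lost, with log2 fold changes of -4.17 ± 0.46 and -3.80 ± 0.38, the first being the most negative value of all 26642 peaks. The lysozyme gene LYZ had 1 of 2 peaks lost (-1.23 ± 0.21, DESeq2 adjusted p = 4.43e-08). MPO had 2 of 6 peaks lost, the one of the smallest adjusted p by -1.23 ± 0.21 (DESeq2 adjusted p = 8.94e-08). The 3 gains were all within 50 kb of the lactoferrin gene LTF, the largest at 1.54 ± 0.22 (DESeq2 adjusted p = 5.87e-11). ELANE, LCN2, CAMP and VCAN had no called peak.

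Over the 12 libraries, the peaks whose log2 counts tracked the strongest S100 peak most closely lay at TNIP1 (Pearson r = 0.908), LZTR1 (r = 0.904) and SYNJ1 (r = 0.895), out of 6868 peaks searched. For peak 11, chosen for this comparison after its values were seen, they lay within MLIP (r = 0.981), near RIMS3 (r = 0.98) and at an intergenic site of chromosome 6 (r = 0.979). All 3 of the latter had negative log2 fold changes, -2.05, -1.86 and -1.35. That sign follows from the choice, because peak 11 is itself lower in every knockdown library and peaks were picked for resembling it. The libraries are shared by all peaks, so these coefficients are descriptions only.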

How the data were processed

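RUNX1 ChIP-seq was analysed in 6 control and 6 PU.1 knockdown THP-1 libraries. The authors, as their methods state, aligned reads with bowtie2 and removed duplicates. Peaks came from macs2 for each condition in each batch, and those found reproducibly in both batches were merged over the conditions and counted by featureCounts. Raw counts per peak were deposited, and a deposited column with other information, the peak width, was used for lengths only. Peaks were called on the compared libraries. The sources name a mouse and a human build. GRCh38 was taken because 20.4% of peaks overlapped a GRCh38.p14 promoter window, against 1.8% to 2.29% after shifting.

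All 26642 peaks were tested with DESeq2 1.42.0 (R 4.3.3; median-of-ratios scaling, batch and genotype, Wald test, Benjamini-Hochberg adjusted p under 0.05 and fold over 1.1, as in the study), within each batch and with an interaction. edgeR 4.0.16 was an alternative. Normalised counts are counts divided by DESeq2 size factors. Fits were tested on simulated data in which far fewer peaks changed than were called here, and by more than the 1.1-fold threshold. That test therefore does not bear on how reliable these calls are. Intervals are 95%. The members and gene lists were chosen with earlier results of these data known. Values were given in full for called peaks and the peak nearest each gene, and peaks 2, 4 and 16 were added after their values were seen. The named genes of other lists are examples, with the nearest peak or that of the smallest adjusted p. Peaks alike were the 3 with the highest Pearson r of log2(normalised count + 1), among those with a mean of at least 50. No 2 libraries of a group were duplicates (chi-square per degree of freedom 1.29 to 2.24 where a pair had 20 or more reads). The list of S100A4 and S100A11 binding partners is not reported here as a whole.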

Additional observations from a re-analysis of the deposited data

Results flagged for a closer look

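One library stood apart from the others of its group at 1 S100 peak. At peak 9, within LOC101927949 and 10394 bp from S100A11 (chr1:152047398-152049068), control replicate 1 had a normalised count of 93.6 (72 reads), whereas control replicates 2 to 6 ranged from 69.5 to 75.4, a gap of 0.76 of the group's range. Groups of 6 libraries at 18 peaks made 36 such comparisons, of which chance alone flags about 1.8 (1 in 20). Peak 9 was not called.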

How the results depend on the processing

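Over both batches, the call of peak 11 held under every alternative in which it was tested, and that of peak 5 under all but a fold change over 2. Peak 11 had log2 fold changes from -2.13 to -1.89 over 19 alternatives (highest DESeq2 or edgeR adjusted p = 8.26e-10) and peak 5 from -0.92 to -0.74 over 20 (highest adjusted p = 3.10e-04), and none of the 6 other peaks named by the rule became called. Of the S100 peaks, 2 were called without any 1 library, 3 with edgeR or after regional centring (peak 16 added), 1 with a fold change over 2 and 6 with the 100 kb window. A minimum of 10 counts in every library left 1, because it removes peak 11, which fell below 10 reads in knockdown libraries, and it left 0 in batch 1 and 1 in batch 2 and moved the median of the S100 peaks to -0.01. Leaving out 1 library gave 0 to 1 calls in batch 1 and 1 to 2 in batch 2. Over all peaks 11185 were called, 12536 with edgeR, 10886 after regional centring, 5877 with the minimum of 10 counts and 4545 with a fold change over 2.

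Replicate numbers did not pair the libraries: deviations of same-numbered libraries correlated between -0.09 and 0.01. With the replicate number as a block in place of batch, 9495 peaks and 2 S100 peaks were called. At peak 14, near S100A6, the 95% interval of the log2 fold change ran from -0.81 to 0.23, which includes both no change and a moderate loss.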
